A study of Mus musculus with 4 samples.

Results

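Expression of 10 S100 genes was examined in articular cartilage of young and adult mice, with and without cartilage injury. S100 genes encode small calcium-binding proteins with paired EF-hand domains, most of which act as dimers. The 10 genes were taken by symbol from the 24532 genes of the expression table, which lists 17 S100 genes in all. They were sorted by their known sites of expression into chondrocyte genes (S100a1 and S100b), myeloid genes (S100a8 and S100a9) and broadly expressed genes (S100a4, S100a6, S100a10, S100a11, S100a13 and S100a16).

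Inside the cell, binding of calcium opens a surface of the S100 protein through which it holds a partner such as an annexin or a myosin. Several family members also leave the cell and bind receptors such as RAGE and Toll-like receptor 4, and S100a8 with S100a9 forms calprotectin, an abundant protein of the neutrophil cytosol that is released at sites of inflammation. In cartilage, antibodies against S100 protein have long been used to stain chondrocytes, and the SOX factors that drive chondrocyte differentiation are known activators of S100a1 and S100b.

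The 4 groups were sham-operated and injured cartilage of young wild-type C57BL/6 mice, 3 weeks of age, and of adult wild-type C57BL/6 mice, and each group was 1 RNA-seq library from 1 pool of 5 uninjured or 10 injured mice. The age of the adult mice was 12 weeks in the titles of the samples, 14 weeks in their age field and 10 weeks in the methods. The injury was a full-thickness needle injury of the patellar groove of the left knee by the methods, whereas the titles name DMM surgery (destabilization of the medial meniscus), and the injured cartilage was taken at day 3. The adult sham sample is labelled as day 3 to 14. With 1 library per group no value below has a replicate error and no difference was tested. Fragment counts are not given in the table, so the depth behind each value is unknown. All levels are FPKM (fragments divided by the length of the transcript and the size of the library), and all differences are log2 ratios of FPKM + 1, with 2-fold as the threshold for a rise or a fall. Where 4 levels follow each other without a name, the young libraries come before the adult ones and, at each age, sham before injured.

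The promoters of 5 of these genes are shown because their genes were the 5 that passed 2-fold after injury in young cartilage. Each sequence is the RefSeq window of GRCm38.p6 (the assembly of mm10) from 250 bases before to 50 bases after the annotated start, on the strand of the gene. Capitals mark matches on either strand to TATAAA (the TATA box), TTNNGNAA (C/EBP), TGANTCA (AP-1) and ACAANG (SOX). The windows are chr3:90668821-90669120 on the plus strand for S100a8, chr3:90695672-90695971 on the minus strand for S100a9, chr3:90603520-90603819 on the plus strand for S100a4, chr3:90612644-90612943 on the plus strand for S100a6 and chr3:93520246-93520545 on the plus strand for S100a11.
S100a8: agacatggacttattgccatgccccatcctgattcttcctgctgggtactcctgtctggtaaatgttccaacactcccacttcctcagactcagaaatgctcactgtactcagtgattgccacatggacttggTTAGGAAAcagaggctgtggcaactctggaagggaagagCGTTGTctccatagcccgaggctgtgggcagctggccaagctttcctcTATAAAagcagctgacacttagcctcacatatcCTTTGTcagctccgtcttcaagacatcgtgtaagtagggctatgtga
S100a9: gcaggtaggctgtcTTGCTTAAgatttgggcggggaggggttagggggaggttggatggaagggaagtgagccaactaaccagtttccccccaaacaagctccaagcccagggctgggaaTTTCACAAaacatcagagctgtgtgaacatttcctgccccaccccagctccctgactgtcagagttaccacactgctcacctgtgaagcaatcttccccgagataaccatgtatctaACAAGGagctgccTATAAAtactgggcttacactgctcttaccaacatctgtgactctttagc
S100a4: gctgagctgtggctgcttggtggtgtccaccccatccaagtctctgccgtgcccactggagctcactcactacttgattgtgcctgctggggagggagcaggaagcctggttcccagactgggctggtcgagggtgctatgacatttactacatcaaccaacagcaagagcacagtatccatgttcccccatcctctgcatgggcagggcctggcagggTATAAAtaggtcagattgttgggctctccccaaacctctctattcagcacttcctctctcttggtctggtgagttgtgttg
S100a6: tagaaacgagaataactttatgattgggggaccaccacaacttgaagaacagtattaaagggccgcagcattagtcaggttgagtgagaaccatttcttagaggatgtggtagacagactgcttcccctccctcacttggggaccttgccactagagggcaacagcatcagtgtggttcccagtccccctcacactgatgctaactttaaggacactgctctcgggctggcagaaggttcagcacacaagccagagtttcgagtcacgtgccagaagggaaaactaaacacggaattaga
S100a11: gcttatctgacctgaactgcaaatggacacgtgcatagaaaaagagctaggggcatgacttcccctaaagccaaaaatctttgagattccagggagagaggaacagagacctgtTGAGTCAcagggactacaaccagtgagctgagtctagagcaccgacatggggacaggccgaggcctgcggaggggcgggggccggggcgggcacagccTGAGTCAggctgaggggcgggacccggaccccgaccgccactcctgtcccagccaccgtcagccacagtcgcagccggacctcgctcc

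S100a8, S100a9 and S100a4 were the only members with a TATA box in the window, at -30 in S100a8 and -31 in S100a4 from the annotated start, and at the annotated start itself in S100a9. Of all 32851 promoter windows, 13.6% held this motif. S100a8 and S100a9 were also the 2 members with a C/EBP match, a motif that 40.7% of all windows held. S100a11 had 2 AP-1 matches, at -136 and -38, and an AP-1 match was found in 7.81% of all windows. S100a6, S100a1 and S100a13 had no match to any of the 4 motifs in this window, and S100b had only a SOX match at its distal end (41.2% of all windows). The SOX match was found in 4 of the 9 members with a window in the reference, which has none for S100a10. S100a16 held an AP-1 match before its second annotated start, at -192. These matches are letters only, and binding was not measured.

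The members differed widely in level. S100a9 was the most abundant in young sham, young injured and adult injured cartilage, and S100a6 in adult sham cartilage. The summed level of the 10 genes was 1885 FPKM in young sham and 4041 FPKM in young injured cartilage, against 4092 and 3986 FPKM in the adult sham and injured libraries, or 0.383%, 0.758%, 0.814% and 0.848% of the FPKM of each library. The young sham library was therefore the low one of the 4. S100a16 was the lowest member in all libraries but young sham, where S100a4 was lowest.

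**Figure D1:**
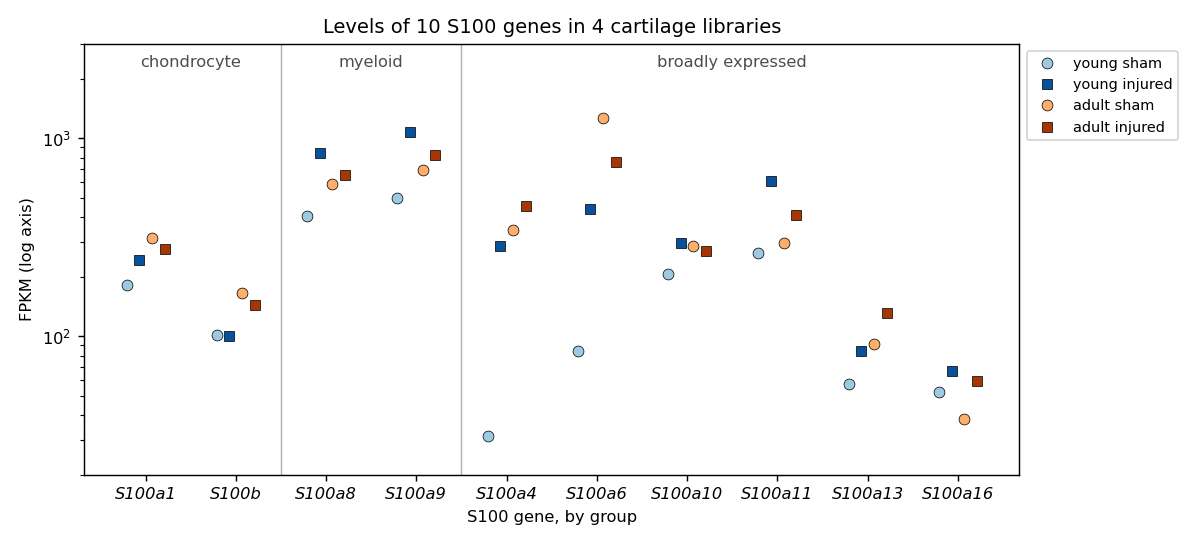
FPKM (log axis) of the 10 S100 genes, each symbol 1 library (circles sham, squares injured, blue young, orange to brown adult), with no error bars because each group is 1 library. S100a4 and S100a6 show the widest spread, with young sham far below the other libraries, at 31.3 and 84.7 FPKM.

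After injury in young cartilage, 5 of the 10 genes rose at least 2-fold (S100a4, S100a6, S100a11, S100a9 and S100a8) and none fell. Of all 18181 genes above 0 in at least 1 library, 4.57% rose and 1.27% fell by as much. The median log2 ratio of the members was 0.81, against 0.00 for all genes, and 9 of 10 members were above 0. The same 5 genes were above 0 under each scaling of the libraries, but S100a8 and S100a9 lay near the threshold, and 3 of 10 genes passed it on the TPM scale or after quantile normalization.

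After injury in adult cartilage, none of the 10 genes was past 2-fold in either direction, where 6.90% of all genes rose and 1.46% fell. The median of the members was 0.19, against 0.14 for all genes, with 6 members above 0 and 4 below. Scaling by the median of ratios (1 factor for each library) turned the member median to -0.15 and placed S100a6 past the threshold (-1.08). The injury ratio was larger in young than in adult cartilage for 9 of the 10 genes, all but S100a16. How many of all genes had the larger ratio in young cartilage was not counted. The median of all genes was 0.00 in the young and 0.14 in the adult, and all young ratios share the young sham library. The order of the ages depended on the scaling for 3 of the 10 members. S100a13 and S100b were larger in the adult on the TPM scale (by 0.17 and 0.01). S100a16 was larger in the young after median-of-ratios scaling (a difference of -0.02). The ratios differed by 1 or more for S100a4 and S100a6, both larger in young cartilage, as was the case for 1.64% of all genes. After median-of-ratios scaling 5 members did, with S100a8 (-1.23), S100a9 (-1.18) and S100a11 (-1.05) added. No member had an adult ratio larger by 1 or more, as 4.60% of all genes had.

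**Figure D2:**
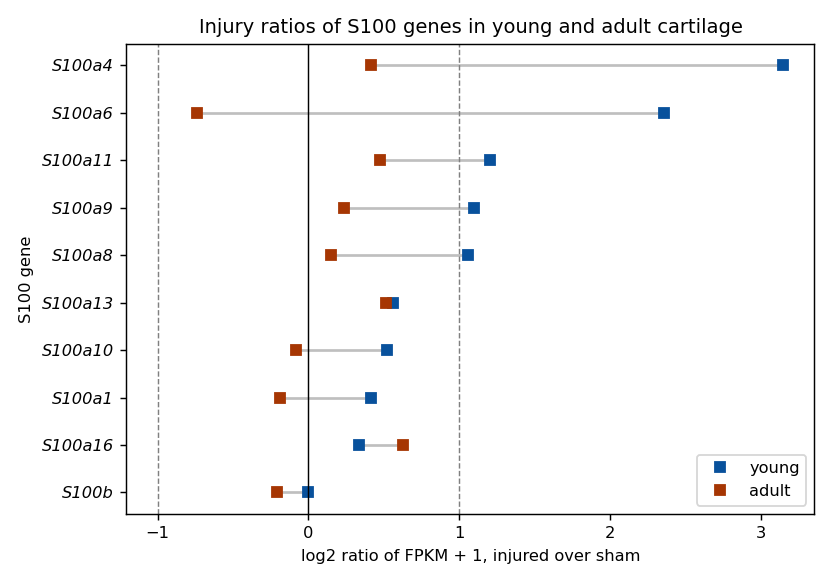
Log2 ratio of FPKM + 1 in injured over sham cartilage for each S100 gene, young (blue) and adult (brown) joined by a line, with dashed lines at 2-fold and 1 library per group. S100a4 and S100a6 have the longest lines, 3.15 against 0.41 and 2.36 against -0.74, and 5 young squares but no adult square lie beyond 1.

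Adult and young sham cartilage differed most in S100a4 and S100a6, the 2 members that were at least 2-fold higher in the adult, and none was 2-fold lower. Of all genes 2.66% were higher and 10.6% lower by as much. The member median was 0.60, against -0.15 for all genes. Median-of-ratios scaling raised the median of the 10891 genes with at least 1 FPKM in every library from -0.30 to 0.07 and brought S100a1, S100b and S100a13 past the threshold, so that 5 of 10 members were higher in the adult. After quantile normalization 3 of 10 were, with S100a1 (1.03) added. Between the injured libraries no member differed by 2-fold in adult against young cartilage, where 1.80% of all genes were higher and 3.09% lower. The member median was 0.02, with 5 members above and 5 below 0. The young injury ratio and the ratio of adult to young sham share the young sham library, so a low value in it raises both.

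S100a4, also known as metastasin or FSP1, binds non-muscle myosin and is found in fibroblasts and in macrophages. It lies on chromosome 3 at 90603770 to 90606045. Its level was 31.3 FPKM in young sham and 285 FPKM in young injured cartilage, against 344 and 458 FPKM in the adult sham and injured libraries. Young sham was low and the other 3 libraries were within 2-fold of each other. The log2 ratio was 3.15 after injury in young cartilage, a 9.13-fold rise of the FPKM themselves, 0.41 after injury in adult cartilage and 3.42 for adult against young sham. Its place among all genes of the library went from 1979th in young sham to 255th in young injured, 186th in adult sham and 169th in adult injured cartilage.

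S100a6, or calcyclin, is expressed in fibroblasts and other proliferating cells, and binds among others the calcyclin-binding protein Cacybp. It lies 6848 bases beyond the end of S100a4, at 90612894 to 90614414 on chromosome 3. The gene was at 84.7 FPKM in young sham and 438 FPKM in young injured cartilage, against 1267 and 759 FPKM in the adult sham and injured libraries. Adult sham was the highest of the 4 and young sham the lowest, so that injured cartilage was above sham in the young and below it in the adult. The injury ratios were 2.36 in the young and -0.74 in the adult, and the sign held under all 3 other scalings. Adult sham was 15.0-fold above young sham in FPKM, a log2 ratio of 3.89. With 1267 FPKM, S100a6 was the 46th most abundant gene of the adult sham library, against 747th in young sham. S100a6 and S100a4 kept no fixed proportion, with 2.71 times as much S100a6 in young sham and 1.54 in young injured cartilage, then 3.68 in adult sham and 1.65 times in adult injured cartilage.

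Markers of other cells moved with these 2 genes in part. The summed FPKM of 8 macrophage and monocyte markers was 179.6 in young sham and 1537 in young injured cartilage, against 246 and 1332 in the adult sham and injured libraries, and all 8 rose at least 2-fold after injury at both ages, or 7 of 8 in the adult after median-of-ratios or quantile scaling (Lyz2 142 to 1271 FPKM in the young and 183 to 1090 FPKM in the adult, Adgre1 from 1.33 to 30.3 and from 3.22 to 16.8). S100a4 relative to that sum was 0.174 in young sham and 0.186 in young injured cartilage, against 1.40 and 0.344 in the adult sham and injured libraries. That sum was mostly Lyz2 in every library. Of 6 fibroblast and synovial markers, 3 rose at each age, with medians of 0.83 and 1.36, and Prg4, the lubricin gene, fell in young cartilage (-2.28). Their sum was 3820 FPKM without and 4632 FPKM with injury in young mice, and 5439 and 9799 FPKM in adults. Relative to this fibroblast sum S100a4 was at 0.00818 and 0.0616 in young sham and injured cartilage and at 0.0633 and 0.0468 in the adult libraries, and S100a6 at 0.0222, 0.0946, 0.233 and 0.0774. Prg4 made up 2049 of the 3820 FPKM of the fibroblast sum in young sham and 421 of the 4632 FPKM in young injured cartilage. Against the macrophage sum S100a4 had similar proportions in the 2 young libraries but not in the 2 adult ones (1.40 and 0.344). Against the fibroblast sum its proportions in the 2 young libraries were not similar. Decorin (Dcn) was at 1001 and 2786 FPKM in the young libraries and at 1393 and 5555 FPKM in the adult ones. Between the shams, where S100a4 and S100a6 differed most, 4 of 6 osteoblast markers were at least 2-fold higher in the adult (a median of 1.77, and a sum of 5108 FPKM against 759.8 FPKM in the young), as were 4 of 6 skeletal muscle markers (a median of 1.47, and 5 of 6 after median-of-ratios scaling). Of the macrophage markers 2 of 8 were higher by as much, and of the fibroblast markers none (3 and 1 after median-of-ratios scaling). None of these markers was at 0 in any library, and their part in the S100 values was not tested. In these bulk samples fewer cells of a type and less RNA per cell cannot be told apart.

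S100a8 (chromosome 3, 90669071 to 90670034) and S100a9 (90692630 to 90695721) encode the subunits of calprotectin and lie 22595 bases apart. S100a8 was at 406 FPKM in young sham and 845 FPKM in young injured cartilage, against 591 and 655 FPKM in the adult sham and injured libraries. S100a9 stood at 500.2 and 1074 FPKM in the young libraries, and at 696 and 821 FPKM in the adult ones. Both genes were lowest in young sham and highest in young injured cartilage. The log2 ratios after injury were 1.06 for S100a8 and 1.10 for S100a9 in young mice, and 0.15 and 0.24 in adult mice. In adult cartilage the sign depended on the scaling, with -0.19 and -0.10 after median-of-ratios scaling. In young cartilage the ratios fell under the threshold to 0.94 and 0.99 on the TPM scale and to 0.84 and 0.87 after quantile normalization. S100a9 exceeded S100a8 by a narrow range of 1.18 to 1.27 times in the 4 libraries, and no other pair of members had such similar profiles (a distance of 0.08 between the centred log2 profiles of the 2 genes, against 0.29 for the next closest pair, S100a9 and S100a11).

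Both calprotectin genes were already abundant without injury, since S100a9 was the 153rd and the 89th most abundant gene of the young and adult sham libraries. Neutrophil markers were present in all libraries as well, with none of 12 at 0 and a summed level of 343 FPKM in young sham and 619 FPKM in young injured cartilage, against 365 and 526 FPKM in the adult sham and injured libraries. Their median injury ratio was 0.82 in the young and 0.42 in the adult libraries, and 2 of 12 rose at least 2-fold at each age. The adult median was 0.13 after median-of-ratios and 0.22 after quantile scaling, under both of which 1 of 12 rose in the young, and 3 rose in the adult on the TPM scale. Ngp, a neutrophil granule gene, was at 126, 229, 94.8 and 178 FPKM. Camp, the gene of the granule peptide cathelicidin, was at 79.0, 161, 106 and 135 FPKM. Ltf, the lactoferrin gene, was at 41.3, 71.5, 34.8 and 49.7 FPKM. Csf3r, the receptor of granulocyte colony-stimulating factor, was the neutrophil marker past 2-fold at both ages, at 2.05 and 9.37 FPKM in the young libraries and 1.96 and 10.9 FPKM in the adult ones. The list was not uniform, as 3 further genes named after their values were seen show: Cxcr2 had injury ratios of 0.95 (young) and 1.49 (adult), whereas Mpo had -0.18 and 0.24 and Elane 0.24 and -0.04. S100a8 relative to the sum of the neutrophil markers was 1.18 in young sham and 1.37 in young injured cartilage, against 1.62 and 1.25 in the adult sham and injured libraries. Relative to the macrophage and monocyte markers, S100a8 went from 2.26 to 0.550 in young and from 2.40 to 0.492 in adult cartilage. The proportion to neutrophil markers thus stayed within 1.18 to 1.62, and that to macrophage markers was lower in both injured libraries. The part of either cell type in the levels was not tested.

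**Figure D3:**
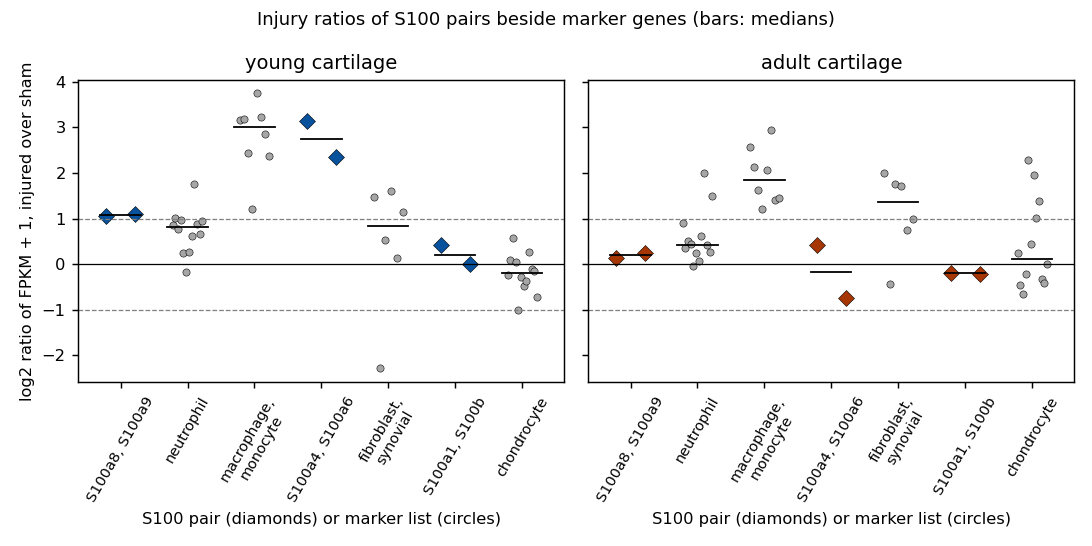
Log2 ratio of FPKM + 1, injured over sham, in young (left) and adult (right) cartilage for pairs of S100 genes (diamonds) and single genes of the marker lists (grey circles), with bars at the medians, dashed lines at 2-fold and 1 library per group. S100a8 and S100a9 lie above the neutrophil median in the young (1.06 and 1.10 against 0.82), below it in the adult (0.15 and 0.24 against 0.42), and below the macrophage medians of 3.01 and 1.85.

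S100a1 is best known from heart and skeletal muscle, where it binds the ryanodine receptor, and is also expressed by chondrocytes. It lies on chromosome 3 at 90511034 to 90514330. Its level was 183 FPKM in young sham and 244 FPKM in young injured cartilage, against 315 and 277 FPKM in the adult sham and injured libraries. The 4 values were within 1.72-fold of each other, with young sham lowest. The log2 ratio was 0.41 after injury in young and -0.19 in adult cartilage, and 0.78 for adult against young sham. Median-of-ratios scaling raised the last of these to 1.22 and quantile normalization to 1.03.

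S100b, a gene of chondrocytes, glia and adipocytes, is the only member outside chromosome 3 and lies on chromosome 10 at 76253836 to 76261319. It was at 101.2 FPKM in young sham and 100.9 FPKM in young injured cartilage, against 167 and 144 FPKM in the adult sham and injured libraries. The 2 young libraries were nearly equal, and both adult libraries lay above them. The injury ratio of S100b was -0.01 in the young and -0.21 in the adult, and adult exceeded young sham by 0.71. S100a1 exceeded S100b by 1.80 to 2.41 times.

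The chondrocyte label of the samples was checked with 12 chondrocyte markers, all above 0 in the 4 libraries. Their sum was 22673 FPKM in young sham and 20830 FPKM in young injured cartilage, against 15531 and 13144 FPKM in the adult sham and injured libraries. Comp, the largest in adult sham, went from 7203 to 4611 FPKM in the adult. After injury none was at least 2-fold higher and 1 lower in the young. In the adult 4 were higher (3 after median-of-ratios or quantile scaling) and none lower. The median injury ratio was -0.19 in the young and 0.13 in the adult, the latter -0.21 after median-of-ratios scaling. Col2a1, the gene of type II collagen, was at 9349, 7903, 3173 and 3750 FPKM. Matn1, which encodes a matrix protein of immature and non-articular cartilage, was at 1661 and 823 FPKM in young and 2.65 and 16.8 FPKM in adult cartilage. Of the 12 markers 8 were at least 2-fold lower in adult than in young sham cartilage, and only Comp was higher, whereas S100a1 and S100b had log2 ratios of 0.78 and 0.71. The 2 S100 genes and the median of the chondrocyte markers lay on opposite sides of 0 in this comparison under each scaling (the marker median was -1.80, and -1.36 to -1.84 with other scalings), but Comp, at 2.44, lay on the side of the S100 genes. Of the 3 SOX genes, Sox9 was at 42.3, 25.4, 31.2 and 31.4 FPKM, Sox6 at 14.0, 8.35, 6.23 and 6.96 FPKM and Sox5 at 12.3, 6.74, 5.18 and 8.77 FPKM. Young sham was the highest library for all 3 SOX genes and the lowest or next to lowest for S100a1 and S100b.

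Markers of other cells that can express these 2 genes differed between the libraries. Of 6 skeletal muscle markers none was at 0, and their sum was 478 FPKM in young sham and 481 FPKM in young injured cartilage, against 1114 and 327 FPKM in the adult sham and injured libraries. Adult sham was highest in both this sum and S100a1, but adult injured cartilage was lowest in the sum and next to highest in S100a1, and in the young S100a1 went from 183 to 244 FPKM at a nearly equal sum. Schwann cell and glia markers summed to 3.97 to 5.28 FPKM in the 4 libraries, and 1 of 5 was at 0 in each adult library. Adipocyte markers summed to 33.2 to 52.0 FPKM, most of it Fabp4, with 1 of 5 at 0 in adult injured cartilage. Their part in S100a1 and S100b was not tested.

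S100a11, which binds annexin A1, lies on chromosome 3 at 93520496 to 93526288. It was at 262 FPKM in young sham and 606 FPKM in young injured cartilage, against 297 and 413 FPKM in the adult sham and injured libraries. Both injured libraries were above their shams and the 2 shams were close, with log2 ratios of 1.21 in young mice, 0.47 in adult mice and 0.18 between the shams. Of the 31-base words of its transcripts, 48.9% also occur in another gene, mostly in the gene Gm12854, so that fragments could be divided between copies and its level is uncertain. Of the words of S100a4, 49.2% occur in Gm42674, which overlaps S100a4 rather than being a copy elsewhere. The other members shared at most 0.424% in the same orientation. Whether Gm12854 and Gm42674 were in the annotation behind the FPKM is not given. Their effect on the levels of S100a11 and S100a4 is therefore unknown.

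S100a10, or p11, does not respond to calcium and forms a complex with annexin A2 at the plasma membrane. It lies on chromosome 3 at 93555117 to 93564645. It was at 206 FPKM in young sham and 296 FPKM in young injured cartilage, against 285 and 269.8 FPKM in the adult sham and injured libraries. It varied least of all members, 1.43-fold from the lowest to the highest library. Its injury ratio was 0.52 in the young and -0.08 in the adult libraries, and the adult sign changed on the TPM scale (0.02).

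S100a13, which takes part in the export of FGF1 and IL-1α from cells, lies on chromosome 3 at 90514233 to 90524581. Its level was 57.2 FPKM in young sham and 84.7 FPKM in young injured cartilage, against 91.4 and 131 FPKM in the adult sham and injured libraries. The injury ratio was 0.56 in young mice and 0.52 in adults. The start of S100a13 overlaps the start of S100a1 by 98 bases on the opposite strand. The libraries were strand-specific, but whether the strand was used in the calculation of FPKM is not given in the sources used here. S100a16, a broadly expressed member that lies on the same chromosome at 90537254 to 90543151, was at 52.6, 66.7, 38.2 and 59.5 FPKM, with adult sham lowest. Its ratios of 0.34 in young and 0.63 in adult cartilage made it the only member with the larger ratio in the adult as deposited, an order that median-of-ratios scaling turned. It was also the only one lower in adult than in young sham, by a log2 ratio of -0.45, and -0.02 after median-of-ratios scaling.

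The 9 members on chromosome 3 fall into 2 groups, 7 between S100a1 and S100a9 and the pair S100a11 and S100a10, 2824774 bases further on. Their neighbours in the first group are the other S100 genes S100a14, S100a3, S100a2, S100a5 and S100a7a, and the levels of these were low. S100a7a was at 0.335 FPKM in young sham and 0.440 FPKM in young injured cartilage, against 6.33 and 1.97 FPKM in the adult sham and injured libraries, and S100a3 at 0.157, 0.843, 2.60 and 2.22 FPKM. S100a5 was at 1.41 FPKM in adult sham and listed at 0 in the other 3 libraries, although it lies between S100a4 and S100a6, whose lowest value was 31.3 FPKM. S100a14 and S100a2 reached at most 0.286 and 0.267 FPKM. The remaining 2 of the 7 other S100 genes, S100g and S100z, lie elsewhere and were listed at 0 in all libraries. Genes next to each other thus differed in level by orders of magnitude, and the 3 other S100 genes that reached 1 FPKM were highest in adult sham cartilage.

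**Figure D4:**
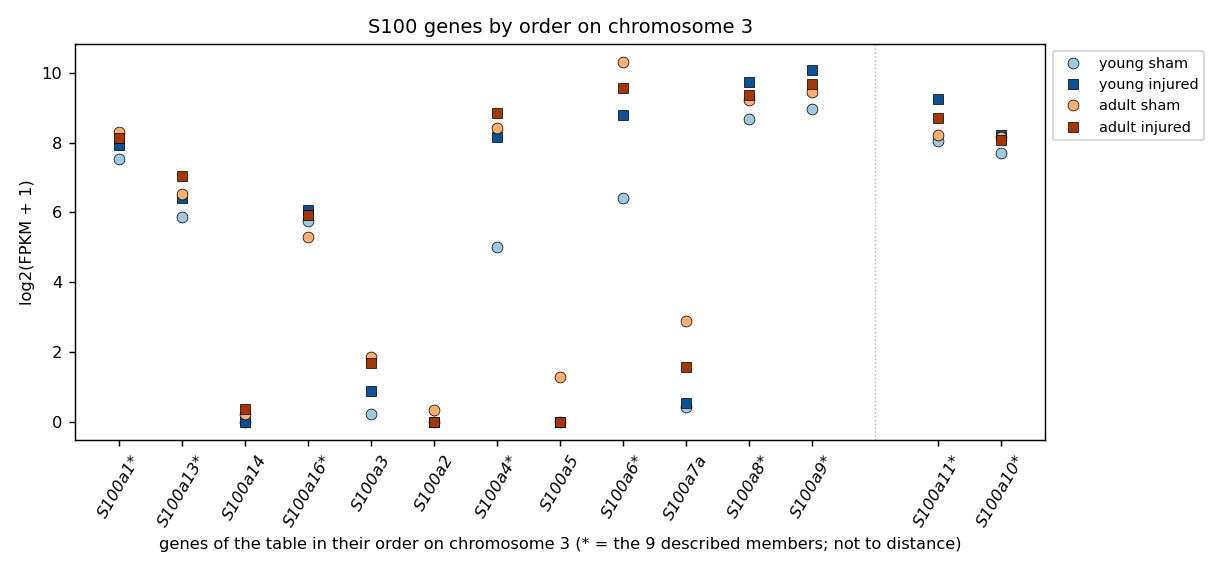
Log2(FPKM + 1) of the 14 S100 genes of the table on chromosome 3 in their order along the chromosome (not to distance), each symbol 1 library, with asterisks at the 9 described genes and a dotted line where the 2 groups of genes are separated. S100a5 lies near 0 between S100a4 and S100a6.

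Partners and receptors of S100 proteins were examined as fixed lists. Of 8 annexin and scaffold genes only Anxa1, the partner of S100a11, rose at least 2-fold in young cartilage (from 69.1 to 174 FPKM, a log2 ratio of 1.32) and none in adult cartilage, where Anxa1 had a ratio of 0.73. Anxa2, the partner of S100a10, was at 433, 753, 762 and 795 FPKM, so that it too was lowest in young sham cartilage. The list had medians of 0.14 (young) and 0.08 (adult), the latter -0.24 after median-of-ratios scaling and -0.10 after quantile normalization. Of 9 receptor and adaptor genes, 4 rose in young and 7 in adult cartilage, and 4 in adult cartilage with median-of-ratios or quantile scaling. Those past 2-fold at both ages included Cd36, a fatty acid receptor, which rose by 2.76 in the young and 2.27 in the adult. Also among them Cd14, a co-receptor of Toll-like receptor 4, rose by 2.70 and 1.52, Emb, a membrane glycoprotein related to Bsg, by 2.07 and 2.47, and Myd88 by 1.19 and 1.15. Bsg (basigin) was the most abundant, at 497, 492, 685 and 709 FPKM. The genes of the receptors RAGE (Ager) and Toll-like receptor 4 (Tlr4) are named here after their values were seen. Ager had injury ratios of 0.03 in the young and -0.07 in the adult, at 1.65, 1.70, 1.33 and 1.22 FPKM. Tlr4 had ratios of 0.75 and 1.09, at 2.25, 4.47, 1.95 and 5.26 FPKM.

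Of the plasmin system, in which S100a10 with annexin A2 binds plasminogen, Plau and its receptor Plaur rose at both ages, Plau by 2.73 in young and 1.99 in adult mice and Plaur by 1.95 and 1.99. Plat, the tissue-type plasminogen activator, fell in adult cartilage with a ratio of -1.20, against 0.16 in young cartilage, and Plg, the gene of plasminogen, was listed at 0 in all libraries. Of 7 intracellular targets 1 passed 2-fold at each age. In young cartilage it was Myh9, the myosin that S100a4 binds, with 1.01, and its adult ratio was just under the threshold (1.00). In adult cartilage it was Cacybp, named here after its values were seen, which rose from 7.75 to 19.8 FPKM (1.25) while its partner S100a6 went from 1267 to 759 FPKM. After median-of-ratios or quantile scaling none of the 7 passed upward at either age, and 1 was at least 2-fold lower in the adult. On the TPM scale none passed in the young and 2 passed upward in the adult. Of 3 calmodulin genes, which encode another EF-hand protein, none was past 2-fold at either age, and Calm2, the most abundant, was at 392, 449.8, 353 and 383 FPKM.

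Genes with profiles most like those of 4 members were sought among genes whose mean reached 5 FPKM, by the distance between centred log2 profiles over the 4 libraries. The nearest to S100a8 were Adcy7 (a distance of 0.07), S100a9 (0.08), Camp (0.15), Naaa (0.17) and Actb (0.20), and S100a9 had S100a8, Camp (0.11), Adcy7, Naaa and Hspb6. The nearest to S100a1 were Crat (0.08), Snapc5, Tmem160, Dhps and Mcm6, and to S100b Plekhh3 (0.04), Tmem109, Actn4, Pex16 and Selo. With 4 libraries many genes are near by such a measure.

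The libraries differed in general level and in markers of other tissues. The FPKM of each library summed to 469939 to 533468, and 7457 to 8390 genes were listed at 0. The 10891 genes that reached 1 FPKM everywhere had a median injury ratio of 0.23 in adult and -0.04 in young cartilage. Erythroid markers summed to 1401 FPKM in young sham and 3119 FPKM in young injured cartilage, against 3371 and 220.1 FPKM in the adult sham and injured libraries. Osteoblast markers summed to 1435 FPKM in young injured and 5741 FPKM in adult injured cartilage.

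**Figure D5:**
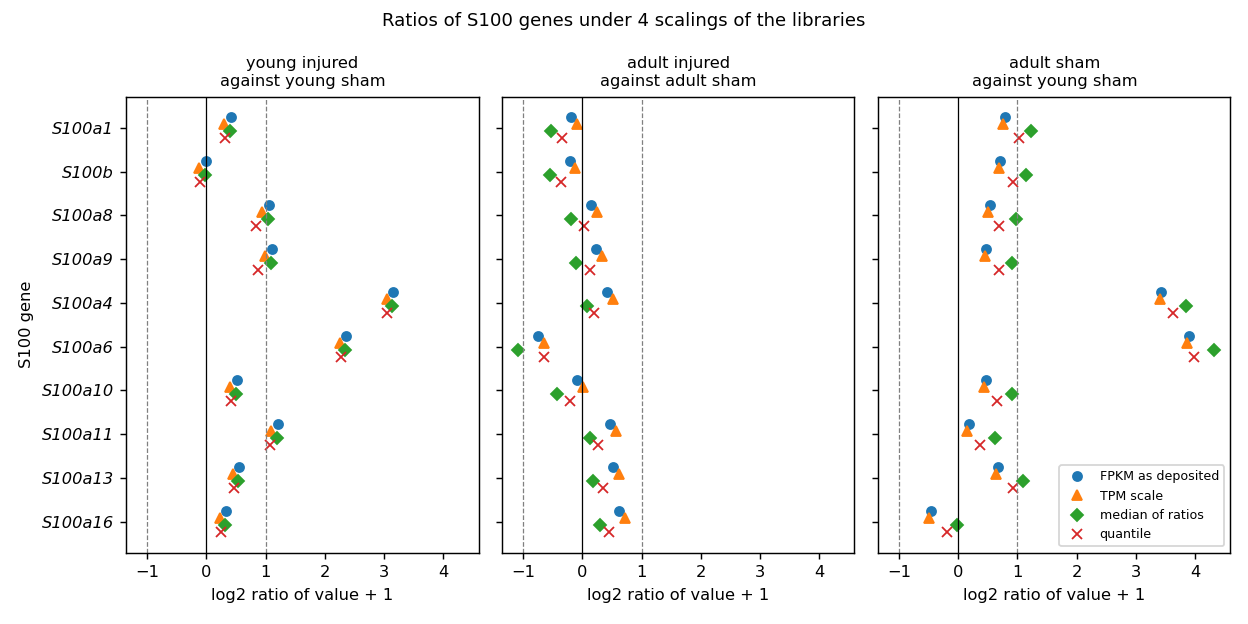
Log2 ratios of the 10 S100 genes in 3 comparisons with 4 scalings of the libraries (circles as deposited, triangles TPM scale, diamonds median of ratios, crosses quantile normalization), dashed lines at 2-fold, 1 library per group. S100a4 and S100a6 stay beyond 2-fold in the left and right panels under each scaling, whereas S100a8 and S100a9 cross it on the left and change sign in the middle.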

How the data were processed

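RNA of articular cartilage was sequenced as paired-end reads of stranded, poly-A selected libraries, 1 library per group. The authors deposited 1 table of FPKM for 24532 genes on mm10. The submitters' processing notes name HISAT2 2.1.0, StringTie 1.3.4d, STAR and SAMtools without their roles. Each column was matched to its sample by name. Log2 ratios of FPKM + 1 were calculated over the whole table, and the 18181 genes above 0 in at least 1 library served as background. A gene counted as risen or fallen at 2-fold. With 1 library per group no spread between replicates could be estimated, and no test was run. The fragment depth is unknown, and no counting error is given. The members and gene lists were chosen with earlier results of these data known. Named list genes are the 3 of highest mean and those past 2-fold at both ages, apart from those said to be named after their values were seen. Listed symbols absent from the table were matched by Entrez identifier (Cnmd as Lect1 and Snorc as 3110079O15Rik). Alternatives were pseudocounts of 0.1 and 5 FPKM, a filter of 1 FPKM, thresholds of 1.5-fold and 3-fold, and 3 other scalings of the libraries (TPM, quantile and median of ratios). Words of 31 bases were compared over GENCODE M21 transcripts. Promoter windows and coordinates came from RefSeq on GRCm38.p6, and 9 of 10 members had a window. 1 gene of the plasmin list is not reported here. Protein sequences were not used here, so the planned comparison of proteins was not run. Ratios and scalings were tested on simulated data. Python 3.11.15, numpy 2.4.6, pandas 2.3.3 and matplotlib 3.10.9 were used.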

Additional observations from a re-analysis of the deposited data

Results flagged for a closer look

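The injury ratio had opposite signs in young and adult cartilage for 3 of the 10 S100 genes, and this difference between the ages was not tested, since each group is 1 library. Of all 18181 genes tested 38.6% had opposite signs. The number of members was 2 on the TPM scale, where 44.9% of all genes had opposite signs, and 3 (36.2%) after quantile normalization. It was 5 after median-of-ratios scaling (34.7%), with S100a8 (1.04 and -0.19) and S100a9 (1.08 and -0.10) added. For S100a6 the log2 ratio was 2.36 at the young age and -0.74 at the adult age. S100a1 had ratios of 0.41 (young) and -0.19 (adult). The ratio of S100a10 was 0.52 in the young libraries and -0.081 in the adult ones, and the adult value became 0.02 on the TPM scale.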

How the results depend on the processing

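Of 320 single member ratios under 8 alternatives, 299 kept their side of the threshold, 7 fell under it, 14 passed it, and none that had passed changed sign. The filter could change none of them, since no member was below 31.3 FPKM, and the pseudocounts moved none across the threshold. Of the 40 ratios per alternative, 38 kept their side on the TPM scale and 36 after each of median-of-ratios scaling and quantile normalization. The number of members 2-fold higher after injury in young cartilage, 5 as reported, was 3 on the TPM scale and after quantile normalization, and 2 with a 3-fold threshold. After injury in adult cartilage 1 member was lower after median-of-ratios scaling, and with a 1.5-fold threshold 1 was higher and 1 lower. In adult against young sham cartilage 5 members were higher, in place of 2, after median-of-ratios scaling and with a 1.5-fold threshold, and 3 after quantile normalization. Between the injured libraries 1 member was higher in the adult after quantile normalization and 3 with a 1.5-fold threshold, in place of none. The injury ratio differed by 1 or more between the ages for 5 members in place of 2 after median-of-ratios scaling. The pseudocounts and the filter moved no count by over 1.5 times. The cause of these moves was not tested. No paired analysis was run, and no replicate could be left out because each group is 1 library. The depth of the libraries is not known from the table, so no limit of detection is given for the genes listed at 0.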

Other observations

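S100a4 and S100a6 were not among the genes whose like profiles were planned to be sought, and their nearest genes were looked up after their values were seen. The profile of S100a4 over the 4 libraries was nearest to those of Pltp, at a distance of 0.50 on the log2 scale, and Spp1, at 0.54. Spp1, the gene of osteopontin, was at 397 FPKM in young sham and 2338 FPKM in young injured cartilage, against 2722 and 4953 FPKM in the adult sham and injured libraries. S100a6 was nearest to Prss23, at a distance of 0.53, whose levels in that order were 1.15, 6.02, 20.1 and 11.7 FPKM. S100a4 was the fifth nearest to S100a6, at 1.03. These distances are far larger than the 0.08 between S100a8 and S100a9.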
